A study of Homo sapiens with 12 samples.

Results

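Collagen chain genes were followed through glucose starvation and loss of OGDH in A375 cells, an established human melanoma line. The members were every gene name in the count table made of COL, a number, A and a number, which gave 44 chains among 61209 gene names. RNA was collected in trizol, and how the libraries were made from it is not stated in the labels. The 4 groups were control cells with glucose, control cells after 5 h without glucose, OGDH-depleted cells with glucose and OGDH-depleted cells after 5 h without glucose, with 3 libraries in each. Titles of the samples use KO where the series text uses knockdown, and both are called OGDH-depleted below. The labels do not describe how OGDH was depleted, whether the depleted cells are 1 clone, or what treatment the controls had. Nor do they say whether libraries of the same group were made from separate cultures, so the p-values reflect the spread among these libraries alone, and that spread may be technical.

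Collagens are the main structural proteins of the extracellular matrix. Chains of a type join as triple helices that build fibrils, the sheet of basement membranes, beaded filaments or anchors between them, while other types decorate fibrils or span the plasma membrane. In the endoplasmic reticulum, prolyl and lysyl hydroxylases modify the chains before the helix folds, and these enzymes use 2-oxoglutarate as a co-substrate. OGDH is the catalytic E1 component of 2-oxoglutarate dehydrogenase, which consumes 2-oxoglutarate in the tricarboxylic acid cycle. Melanoma cells and fibroblasts are both known sources of collagen in tumours, and a cultured line shows what the tumour cells make by themselves.

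Libraries held 21556273 to 25546615 counted fragments. OGDH stood at 142 to 166 CPM (counts relative to the TMM-scaled library size) in control cells with glucose, 129 to 133 in starved controls, 36.3 to 45.1 in OGDH-depleted cells with glucose and 32.3 to 33.9 in starved OGDH-depleted cells, so every library matched its OGDH label. The lineage label was met in part. SOX10, a transcription factor of the melanocyte lineage, averaged 633 CPM in control cells and 348 in starved controls. It averaged 613 in OGDH-depleted cells and 550 in starved OGDH-depleted cells, and its part in the results below was not tested. Over the groups AXL averaged 364 to 629 CPM, NGFR 47.1 to 130, MITF 25.9 to 44.2, S100A1 1.25 to 2.57, S100B 0.62 to 1.51 and DCT 0.13 to 0.47. TYR was at 0 in both glucose groups and PMEL and MLANA stayed near 1 CPM. Of 11 fibroblast markers, 8 passed the filter on low counts. The summed level of all 11 was 41.1 to 42.9 CPM in control cells, 32.4 to 40.0 in starved controls, 41.3 to 42.8 in OGDH-depleted cells and 43.8 to 50.1 in starved OGDH-depleted cells. Over the 4 groups TWIST2 averaged 11.3 to 15.2 CPM, PRRX1 3.60 to 11.1, ACTA2 7.68 to 10.1, PDGFRB 3.92 to 8.08 and LUM 3.22 to 5.28, while PDGFRA, DCN, FBLN1, FAP, THY1 and POSTN averaged under 1 CPM in each. In bulk libraries, fewer cells making a chain and less RNA per cell cannot be told apart.

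In 3 of the 4 groups 1 library stood apart from the others. Mitochondrial transcripts took 14.6% of counts in control replicate 2 against 4.97% and 6.35% in the other control libraries. They took 4.11% in starved control replicate 3 against 14.4% and 13.2%, and 9.71% in starved OGDH-depleted replicate 3 against 3.06% and 5.12%. The same 3 libraries differed in how counts followed the GC content of genes. Slopes were taken on each library's deviation from the mean of its group, which includes that library. In log2 units per 10 percentage points of GC, the slope was -0.29 in control replicate 2 and 0.25 in starved control replicate 3. It was -0.20 in starved OGDH-depleted replicate 3 and lay between -0.15 and 0.18 in the other libraries. Deviations in a group balance, so the slopes of its other libraries in part mirror that of the library that stood apart. This touches the collagens because their transcripts are GC-rich, with a median of 59.6% over the tested chains against 47.9% over all tested genes, and across the 24 tested chains alone the slopes of these 3 libraries were -0.24, 0.24 and -0.24. Results are therefore given beside a fit with a GC offset, which removes each library's trend with GC, and a fit without the 3 libraries. Without them, mitochondrial shares were 4.97% and 6.35% in fed controls and 14.4% and 13.2% in starved controls. In starved OGDH-depleted cells they were 3.06% and 5.12%. In that fit the effect of the condition on starved controls cannot be told apart from this difference between libraries.

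The type IV genes lie head to head in pairs, and 2 stretches between such start sites are shown because COL4A1 and COL4A5 carry the main results below. COL4A1 (chromosome 13, 110148963 to 110307157, minus strand, hg38) and COL4A2 (chromosome 13, 110305812 to 110513209, plus strand) have RefSeq start sites with 126 bases between them. COL4A5 and COL4A6 start 379 bases apart on the X chromosome, where COL4A5 spans 108439838 to 108697545 on the plus strand. The sequences are from RefSeq (GRCh38.p14), plus strand, at chr13:110307158-110307257 and chrX:108439588-108439837, and neither overlaps a counted exon. Capitals mark matches, on either strand, to the GC box with the letters GGGCGG or to the box with the letters CCAAT. The TATA box, with the letters TATAAA, was searched as well.
COL4A1 and COL4A2, between the start sites: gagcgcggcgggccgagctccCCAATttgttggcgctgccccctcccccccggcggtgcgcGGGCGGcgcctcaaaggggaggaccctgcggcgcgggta
COL4A5, upstream of the start site: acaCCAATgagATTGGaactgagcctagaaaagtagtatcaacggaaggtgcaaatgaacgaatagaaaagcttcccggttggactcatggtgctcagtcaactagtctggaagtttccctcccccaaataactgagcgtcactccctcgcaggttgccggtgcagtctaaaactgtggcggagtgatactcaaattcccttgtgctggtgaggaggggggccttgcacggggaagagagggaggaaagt
The stretch between COL4A1 and COL4A2 is 78.0% GC and holds 1 GC box and 1 CCAAT box, motifs found in 31.3% and 18.1% of 35116 RefSeq promoter windows of 100 bases. The 250 bases upstream of COL4A5 are 51.2% GC and hold 2 CCAAT boxes and no match to the GC box or the TATA box. Of windows of that length, 32.0% held a CCAAT box, 42.6% a GC box and 10.7% a TATA box. Of the 24 tested chains, 18 had a promoter entry, and their upstream windows held a GC box in 11, a CCAAT box in 6 and a TATA box in 4. These are matches of letters, and binding of a factor was not measured.

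Collagen transcripts made up 0.161% to 0.232% of all counts in control cells, and 24 of the 44 chains passed the filter and held 99.9% of the collagen counts. Chains of types IV, IX, V and VI led the order of levels, while those of the fibroblast types I and III were counted few times. COL4A2, which pairs with COL4A1 in the basement membrane helix, was the most abundant chain per length, at 29.1 ± 6.06 CPM per kb of counted exon in control cells (SD, n = 3). COL9A3, a chain of the fibril-associated type IX, followed at 28.2 ± 9.76, COL5A2, a chain of the regulatory fibril type V, at 21.2 ± 1.31, COL6A1, a chain of the beaded filament type VI, at 20.2 ± 3.29, and COL4A1 at 16.1 ± 1.23. Neighbours in this order down to COL4A1 overlapped in their libraries, and COL4A1 lay above COL27A1 in every control library. COL27A1 (11.2 ± 0.39), COL6A3 (7.89 ± 0.70), COL6A2 (7.41 ± 1.88), COL12A1 (7.12 ± 0.67) and COL13A1 (6.92 ± 1.17) came next in CPM per kb. Dividing by the longest GENCODE transcript in place of the union of exons moved COL4A1 from 5th to 3rd, COL13A1 from 10th to 5th and COL5A2 from 4th to 7th over the 12 libraries, while COL4A2 and COL9A3 stayed at the top.

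A middle tier ran from COL7A1, the anchoring fibril chain (3.94 CPM per kb in control cells), COL5A1 (3.68) and COL18A1, the source of endostatin (3.04), through COL16A1 (1.76), COL9A2 (1.36) and COL17A1, a transmembrane chain of hemidesmosomes (1.26), to COL4A5 (0.60) and COL19A1 (0.46). COL5A3, COL1A1, COL22A1, COL8A1, COL4A6 and COL4A4 lay between 0.02 and 0.20 CPM per kb. COL1A1, a chain of the main fibrillar collagen of skin and bone, was counted 23 to 45 times per library. Its partner COL1A2 was never counted more than 3 times in a library, and COL3A1, the other major fibroblast chain, no more than 5 times. Exons of COL18A1 share 18.5% of their length with SLC19A1 on the other strand, so its counts are uncertain. For COL4A1, COL4A5, COL5A2 and COL6A3 no counted base was shared with another gene name.

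The 20 chains that failed the filter were all low in every library. COL11A2 reached 22 counts, COL2A1 14, COL11A1 and COL24A1 9 each, COL21A1 and COL4A3 8 each, COL20A1 7 and COL10A1 6. COL3A1, COL8A2 and COL25A1 reached 5, COL6A6 and COL14A1 4, and COL1A2, COL15A1, COL23A1 and COL26A1 3. COL6A5 and COL28A1 reached 2 and COL9A1 1. At this depth these chains were not tested in the fit of 12 libraries. COL2A1, a cartilage fibril chain counted 7 to 14 times in fed and 3 to 5 times in starved control libraries, passed the filter in some smaller fits. It was called lower in starved control cells without the 3 libraries (log2 fold change -1.39, adjusted p = 0.033), without control replicate 2 (adjusted p = 0.029) and without starved OGDH-depleted replicate 3 (adjusted p = 0.046). COL2A1 averaged 0.44 CPM in fed controls and 0.11 to 0.23 CPM in the other groups. It thus passed the filter through the group in which it was high, so these calls are no evidence of a fall.

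**Figure D1:**
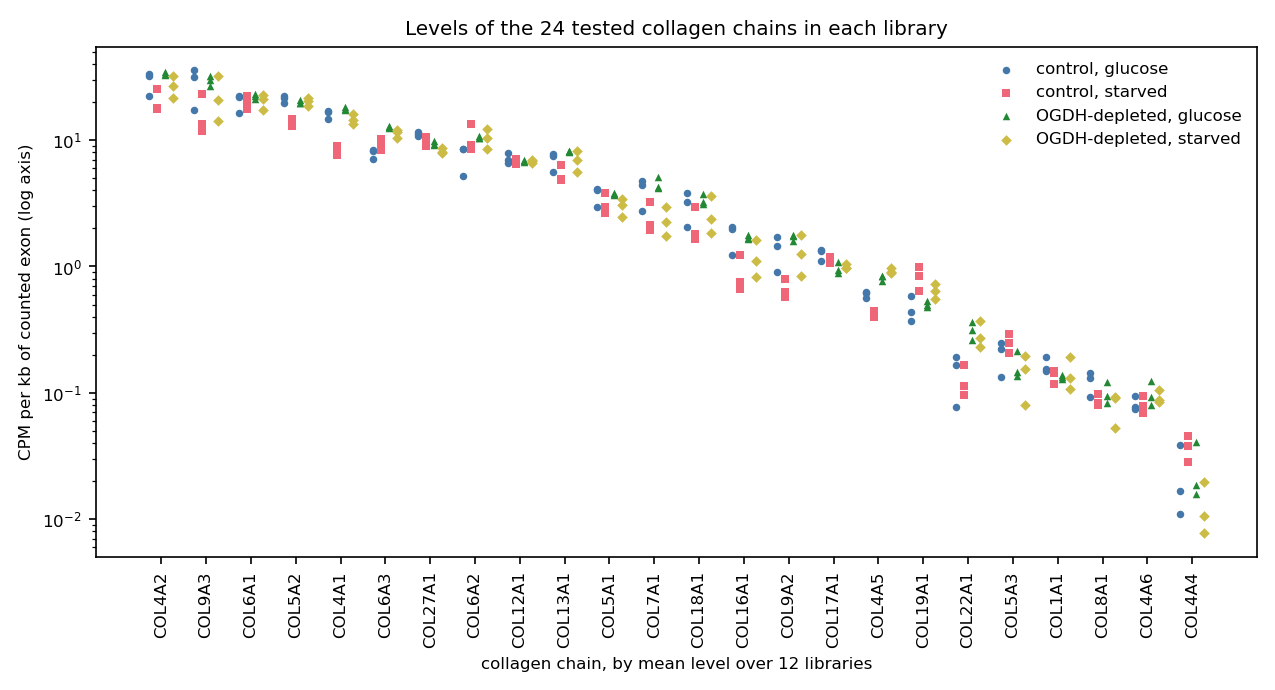
CPM per kb of counted exon (log axis) of the 24 tested collagen chains in each of 12 libraries, with colour and shape for the group. COL4A2 and COL9A3 sit highest and COL4A4 lowest, and the starved control libraries of COL4A1, COL5A2 and COL4A5 lie below the other groups.

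The first comparison asked what 5 h without glucose did to the chains in control cells. Of the 24 tested chains, 5 fell and 1 rose at an adjusted p under 0.05 (edgeR's quasi-likelihood test, Benjamini-Hochberg over 18526 genes), a share to be read against the 34.5% of all tested genes called in this comparison (17% higher, 17.5% lower). The chains that fell were the basement membrane chains COL4A1 and COL4A5, the fibrillar COL5A2 and the fibril-associated COL9A2 and COL16A1, and the chain that rose was the fibril-associated COL19A1. The fold change lay below 0 on the log2 scale for 19 of 24 chains, with a median of -0.26 against -0.02 over all tested genes. Libraries of starved and fed cells did not overlap for 1 chain that was higher and 5 that were lower, against 19.4% and 20.8% of all tested genes. Calls numbered 11 without control replicate 2, 10 without starved control replicate 3, 12 with the GC offset and 15 without the 3 libraries that stood apart. The counts of 11 and 15 include COL2A1, so 10 and 14 of them are among the 24 chains. The share of all tested genes called was 44.6% and 60.5% in the last 2 of these fits. For the first 2 it is not given here, so their counts are no result about the chains.

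COL4A1, one of the 2 chains found in almost every basement membrane, stood at 249, 216 and 244 CPM in control cells and at 127, 112 and 131 CPM in starved control cells. All starved libraries lay far below all fed ones. It fell by 0.94 on the log2 scale (SE 0.10, adjusted p = 3.0e-05), a 1.92-fold drop, and it was called under all 22 alternatives run. COL5A2, which helps set the width of fibrils, stood at 162, 144 and 159 CPM with glucose and at 94.2, 98.5 and 107 CPM without it. Again the groups did not overlap, and the fall of 0.63 (SE 0.09, adjusted p = 0.00031) was called under all 22 alternatives.

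COL4A5, whose mutation causes Alport syndrome, stood at 7.29, 7.48 and 6.74 CPM in control cells and at 4.77, 5.27 and 4.97 CPM after starvation. The 3 starved libraries were the 3 lowest, and COL4A5 fell by 0.52 (SE 0.11, adjusted p = 0.0030), also under all 22 alternatives. COL19A1, a minor chain linked to basement membrane zones, moved the other way, from 4.04, 6.40 and 4.77 CPM to 9.31, 10.9 and 7.03 CPM. The groups were separate by a small margin, since the highest fed library was control replicate 2 and the lowest starved one was starved control replicate 3. It rose by 0.84 (SE 0.20, adjusted p = 0.0070) and was called under all 22 alternatives. Its log2 fold change was 0.80 with the GC offset and 1.19 without the 3 libraries.

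COL9A2, a chain of the cartilage type IX collagen, stood at 7.18, 3.81 and 6.15 CPM in control cells and at 2.64, 2.42 and 3.37 CPM after starvation. COL16A1, which lies along fibrils and basement membranes, stood at 19.0, 11.4 and 18.5 CPM and then at 7.01, 6.13 and 11.5 CPM. In both, control replicate 2 was the lowest fed library and starved control replicate 3 the highest starved one, and for COL16A1 they overlapped. COL9A2 fell by 1.02 (SE 0.29, adjusted p = 0.018) and COL16A1 fell by 0.98 (SE 0.29, adjusted p = 0.022). Both calls were lost when control replicate 1, control replicate 3, starved control replicate 1 or starved control replicate 2 was left out, at adjusted p of 0.055 to 0.072 for COL9A2 and 0.074 to 0.087 for COL16A1. Without the 3 libraries that stood apart the log2 fold changes were -1.41 and -1.52.

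Among chains that missed the threshold, several GC-rich ones had the same order of libraries. COL4A2 stood at 636, 426 and 619.8 CPM with glucose and at 347, 342 and 484 CPM without it, and the overlap came from control replicate 2 and starved control replicate 3. Its log2 fold change was -0.52 (SE 0.19, adjusted p = 0.056), and it became -0.32 (adjusted p = 0.00084) with the GC offset and -0.87 (adjusted p = 5.9e-06) without the 3 libraries. COL9A3 was at -0.80 (adjusted p = 0.092), COL7A1 at -0.69 (adjusted p = 0.058) and COL13A1, a transmembrane chain, at -0.36 (adjusted p = 0.11) on the log2 scale, and each passed the threshold in both of these other fits. COL12A1, a long chain on the surface of fibrils, was at -0.08 with a 95% interval of -0.28 to 0.12.

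For the type VI chains the value depended on the fit. COL6A2 stood at 45.5, 27.9 and 45.2 CPM in control cells and at 48.8, 45.2 and 71.7 CPM after starvation, with the lowest value in control replicate 2 and the highest in starved control replicate 3. Its log2 fold change was 0.48 (adjusted p = 0.11), 0.72 with the GC offset (adjusted p = 1.3e-06) and 0.04 without the 3 libraries (adjusted p = 0.68). COL6A1 gave -0.03, 0.19 and -0.26 in the same 3 fits, with adjusted p of 0.88, 0.13 and 0.013, so it changed sign with the fit. COL6A3 gave 0.23, 0.33 and 0.07, with adjusted p of 0.12, 0.00053 and 0.40.

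**Figure D2:**
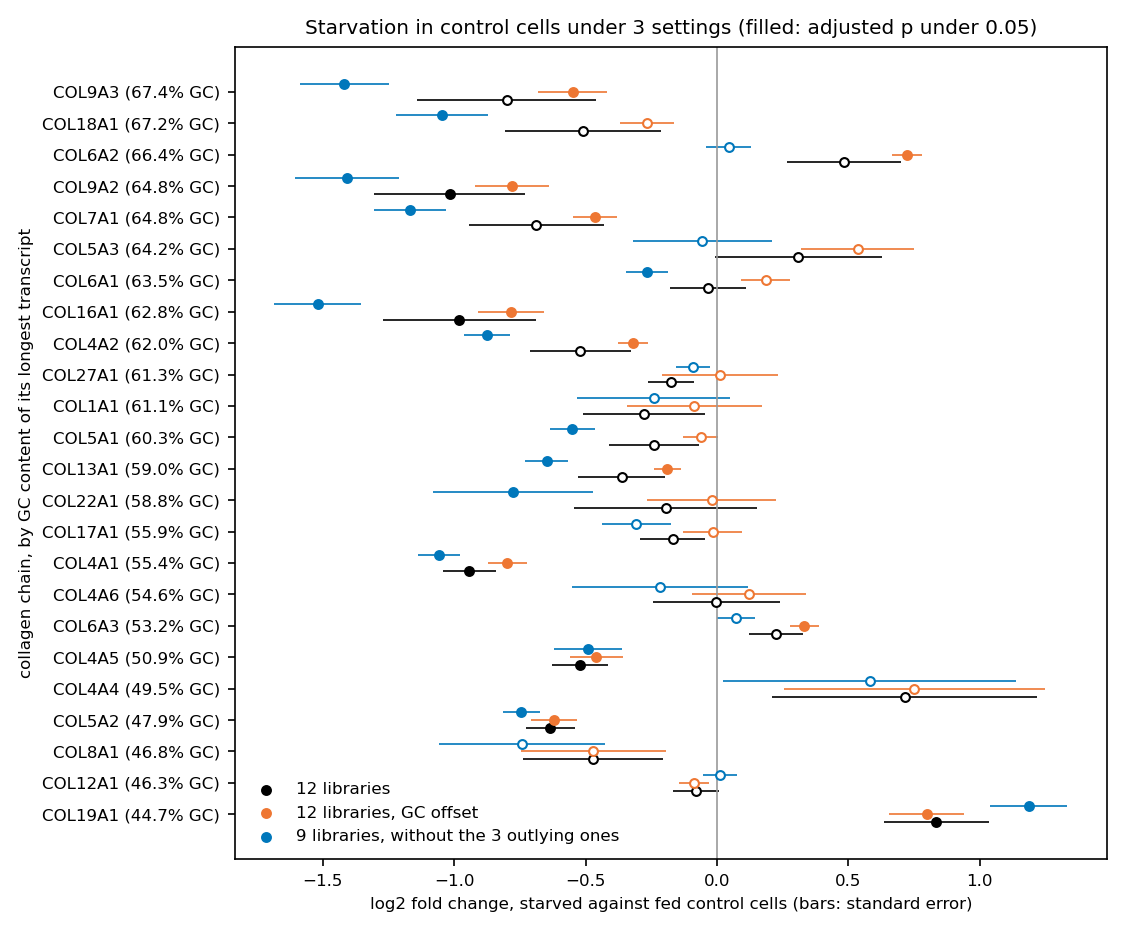
Log2 fold change with SE of each tested chain for starvation in control cells, with chains ordered by the GC content of their longest transcript, under the fit of 12 libraries, the same with a GC offset, and the fit of 9 libraries. Filled points have an adjusted p under 0.05. The 3 values of COL4A5 and COL5A2 lie close together, while those of COL6A1, COL6A2, COL9A3 and COL18A1 spread widely.

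The second comparison asked the same of OGDH-depleted cells. There, 1 of 24 chains was called, against 7.18% of all tested genes (2.42% higher, 4.76% lower), and the median log2 fold change of the chains was -0.20 against 0.02 over all genes. The groups did not overlap for 2 higher and 7 lower chains, against 20.6% and 19.1% of all tested genes. COL7A1, which anchors basement membranes to the tissue below, stood at 47.0, 46.6 and 56.8 CPM with glucose and at 33.0, 25.0 and 19.4 CPM without it. The groups did not overlap, and COL7A1 fell by 0.96 (SE 0.26, adjusted p = 0.047). Its call was lost in 11 of 22 alternatives, among them leaving out 9 of the 12 libraries in turn (the exceptions were control replicate 2, starved OGDH-depleted replicate 1 and starved control replicate 3), with adjusted p of 0.051 to 0.21, and the count then fell to 0. Fits with the GC offset gave COL7A1 -0.61 (adjusted p = 0.0010) and without the 3 libraries -0.81 (adjusted p = 0.0012).

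The 3 chains that fell in every fit of the control cells did not pass the threshold here. COL4A1 stood at 266, 255 and 259 CPM with glucose and at 234, 213 and 197 CPM after starvation. These groups did not overlap, yet the log2 fold change was -0.27 (SE 0.10, adjusted p = 0.12; 95% interval -0.50 to -0.05), which missed the threshold over all genes. Without the 3 libraries COL4A1 was called, at -0.24 (adjusted p = 0.042). COL5A2 stood at 153, 144 and 145 CPM and then at 159, 148 and 135 CPM, with full overlap and a log2 fold change of 0.00 (95% interval -0.21 to 0.22). COL4A5 stood at 9.09, 10.02 and 10.01 CPM and then at 11.5, 10.6 and 10.8 CPM, with a log2 fold change of 0.18 (95% interval -0.06 to 0.41). COL19A1 was at 5.44, 5.92 and 5.30 CPM and then at 6.13, 7.04 and 7.98 CPM, with a log2 fold change of 0.34 (adjusted p = 0.31).

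**Figure D3:**
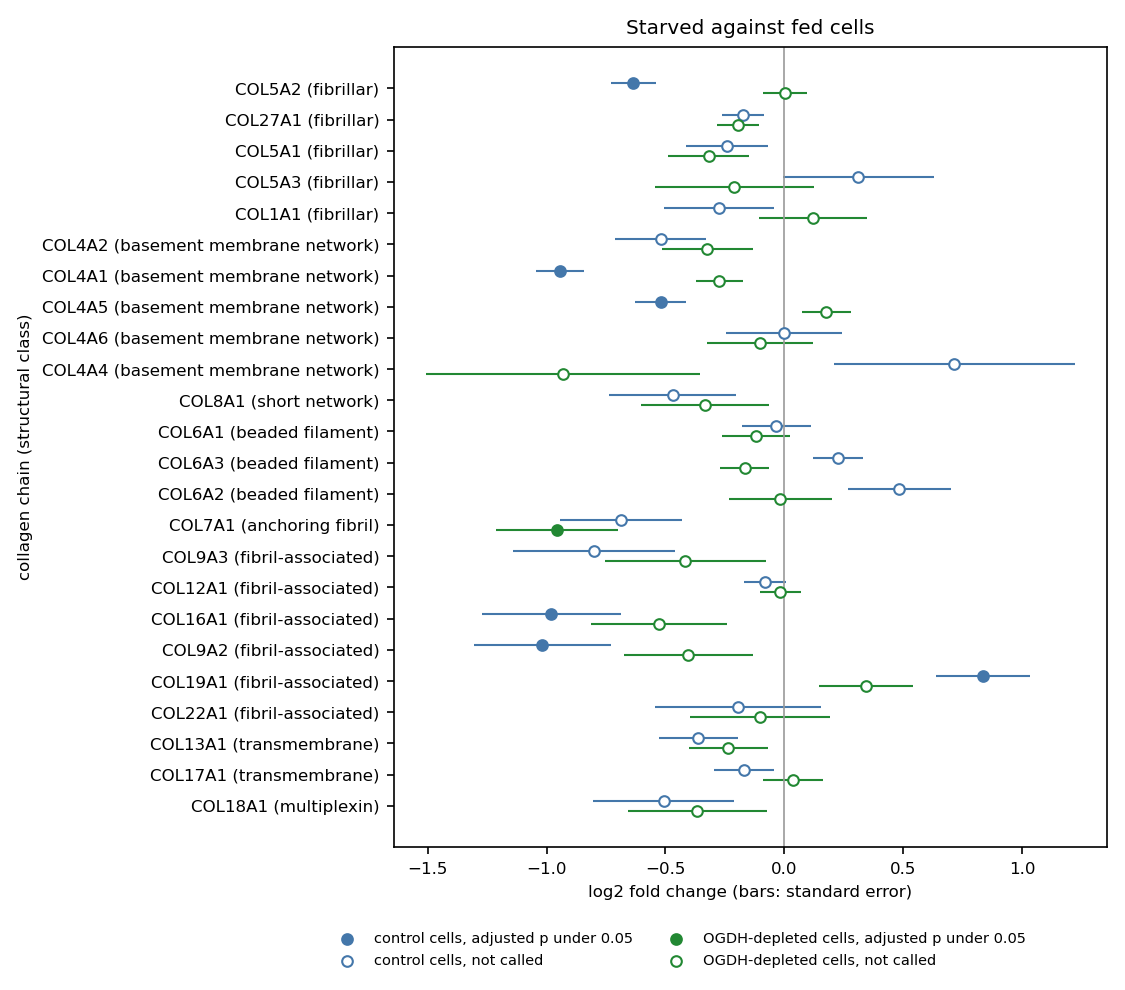
Log2 fold change with SE for starved against fed cells, in control cells and in OGDH-depleted cells, for the 24 tested chains grouped by structural class. Filled points have an adjusted p under 0.05, namely 6 chains in control cells and COL7A1 in OGDH-depleted cells.

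The difference between the 2 starvation responses was tested as an interaction, in which 3 of 24 chains were called, all 3 with a positive difference (starvation response in OGDH-depleted cells minus that in controls). Among all tested genes 17.3% were called, 8.3% with a positive difference and 8.95% with a negative one. The difference was 0.67 for COL4A1 (SE 0.14, adjusted p = 0.0073), 0.64 for COL5A2 (SE 0.13, adjusted p = 0.0066) and 0.70 for COL4A5 (SE 0.15, adjusted p = 0.0077) on the log2 scale. COL4A1 and COL5A2 were called under all 21 alternatives, and COL4A5 under 20 of them, missing with no filter on low counts at an adjusted p of 0.075. The median difference over the chains was 0.11 against 0.01 over all tested genes. The count was 9 with the GC offset and 11 without the 3 libraries, where 27.3% and 43.0% of all tested genes were called. Both added COL4A2 (differences of 0.32 and 0.67), COL9A2 (0.71 and 1.21), COL16A1 (0.57 and 1.18) and COL13A1 (0.22 and 0.52). The GC offset also added COL6A2 (-0.36, adjusted p = 0.0063) and COL6A3 (-0.34, adjusted p = 0.0086) with negative differences, neither of which was called without the 3 libraries (0.05 and -0.21). COL19A1 had a difference of -0.49 (adjusted p = 0.27), and its difference was called without the 3 libraries, at -0.96 (adjusted p = 0.0024).

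The summed level of the fibroblast markers was lowest in starved controls, at 32.4 to 40.0 CPM, and highest in starved OGDH-depleted cells, at 43.8 to 50.1 CPM. The markers did not move as one. From fed to starved controls PRRX1 went from 7.83 to 3.60 CPM on average, PDGFRB from 6.95 to 3.92 and LUM from 5.28 to 3.22. TWIST2 went up from 11.3 to 15.2 CPM, and ACTA2 was at 7.69 and 7.68 CPM. Their part in the result was not tested. Of 5 epithelial markers 2 passed the filter, KRT8 and KRT18. The sum of all 5 was 349 to 395 CPM in control cells, 800.3 to 888 in starved controls, 358 to 375 in OGDH-depleted cells and 412 to 442 in starved OGDH-depleted cells. The higher sum in starved controls came from KRT18, at 296 ± 2.28 CPM in fed and 743 ± 19.2 in starved controls. KRT8 was at 81.0 ± 26.8 and 96.7 ± 37.0 CPM there, and EPCAM, CDH1 and KRT19 were near 0. The part of these genes was not tested either. Endothelial and blood markers each summed to no more than 5.20 CPM in any library.

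**Figure D4:**
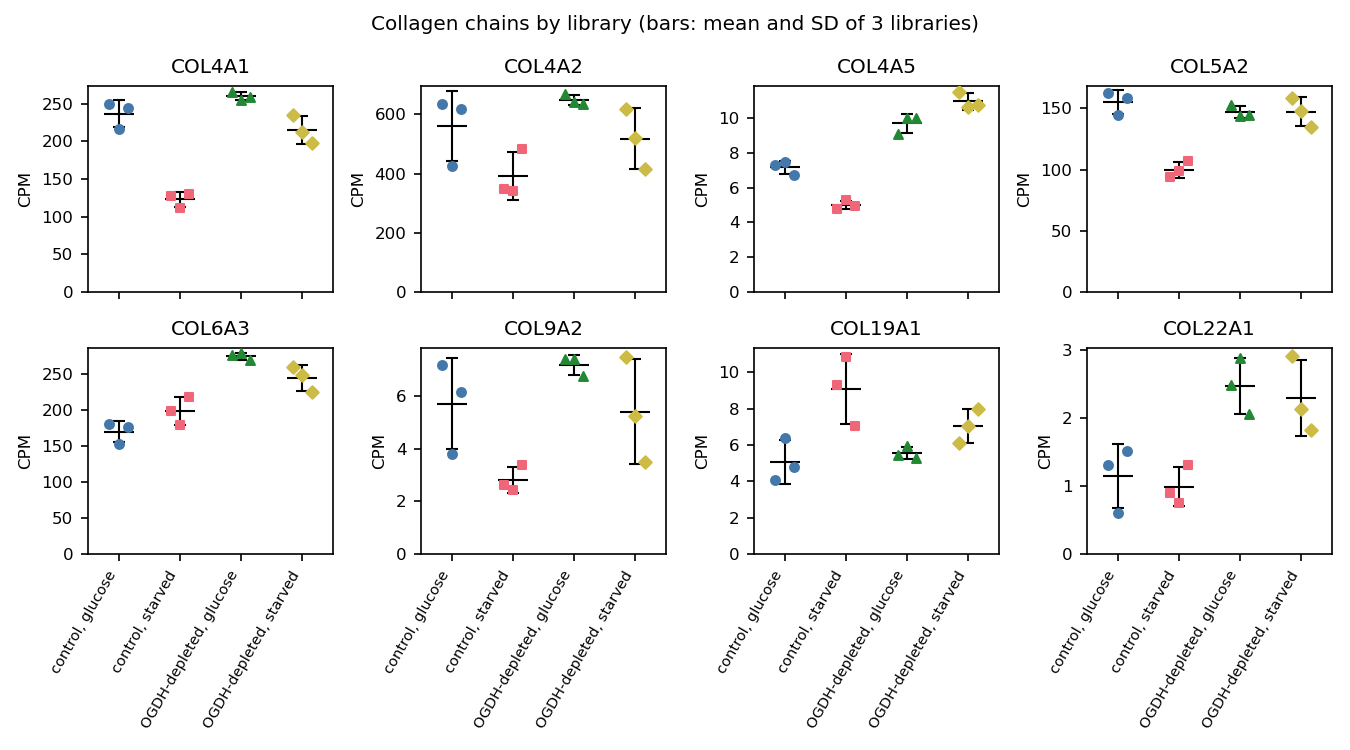
CPM of 8 collagen chains in every library of the 4 groups, with the mean and SD of 3 libraries as bars and each axis starting at 0. COL4A1, COL4A5 and COL5A2 are lowest in the starved control libraries, and COL6A3 and COL22A1 are higher in all OGDH-depleted libraries than in the control libraries of the same glucose condition.

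The third comparison asked what loss of OGDH did with glucose present. Both chains called of the 24 were higher, against 3.04% of all tested genes called (1.59% higher, 1.45% lower), and the median log2 fold change of the chains was 0.14 against -0.01 over all genes. The groups did not overlap for 6 higher and 3 lower chains, against 14.2% and 12.9% of all tested genes. COL6A3, the long chain of the beaded filament that also gives rise to endotrophin, stood at 181, 153 and 175 CPM in control cells and at 275, 279 and 269 CPM in OGDH-depleted cells. Every depleted library was above every control one, and COL6A3 rose by 0.69 (SE 0.10, adjusted p = 0.0050). It was called under all 22 alternatives. COL4A5 stood at 7.29, 7.48 and 6.74 CPM in control cells and at 9.09, 10.02 and 10.01 CPM in depleted cells, again without overlap. It rose by 0.44 (SE 0.10, adjusted p = 0.047), a call that was lost when any 1 of the 12 libraries was left out, at adjusted p of 0.054 to 0.18, leaving a count of 1.

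COL22A1, a fibril-associated chain known from muscle and tendon junctions, missed the threshold in this comparison. It stood at 1.31, 0.606 and 1.51 CPM in control cells and at 2.48, 2.87 and 2.05 CPM in depleted cells. All depleted libraries were higher, with a log2 fold change of 1.10 (SE 0.31, adjusted p = 0.096), and it was called with the GC offset (adjusted p = 0.018), without the 3 libraries (adjusted p = 0.044) and by DESeq2 (adjusted p = 0.024). COL6A2 had a log2 fold change of 0.51 (adjusted p = 0.28), or 0.28 with the GC offset (adjusted p = 0.011) and 0.30 without the 3 libraries (adjusted p = 0.033). Lower chains were gained as well: COL17A1 was at -0.38 (adjusted p = 0.15), and was called with the GC offset (-0.49, adjusted p = 0.022) and without the 3 libraries (-0.48, adjusted p = 0.024). COL27A1 was at -0.25 (adjusted p = 0.18), and was called by DESeq2 (adjusted p = 0.041) and without the 3 libraries (adjusted p = 0.029). COL4A1 at 0.14, COL4A2 at 0.21 and COL5A2 at -0.08 were not called in the fit of 12 libraries, with the GC offset or without the 3 libraries.

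The fourth comparison set starved OGDH-depleted cells against starved control cells, with which the interaction and the first comparison share the starved controls. Here 6 chains were higher and 1 lower of 24, against 28.7% of all tested genes called (13.7% higher, 15% lower), with a median log2 fold change of 0.14 against 0.00. The groups did not overlap for 6 higher and 4 lower chains, against 19.1% and 19.6% of all tested genes. COL4A5 was at 4.77, 5.27 and 4.97 CPM in starved controls and at 11.5, 10.6 and 10.8 CPM in starved depleted cells, a 2.19-fold gap with no overlap (log2 fold change 1.13, SE 0.11, adjusted p = 1.8e-05). COL4A1 was at 127, 112 and 131 CPM against 234, 213 and 197 CPM (0.80, SE 0.10, adjusted p = 0.00013), and COL5A2 at 94.2, 98.5 and 107 CPM against 159, 148 and 135 CPM (0.56, SE 0.09, adjusted p = 0.0010). For all 3 chains each depleted library exceeded each control library, and the call held under all 22 alternatives.

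COL22A1 stood at 0.898, 0.752 and 1.30 CPM in starved controls and at 2.91, 2.12 and 1.82 CPM in starved depleted cells, with a log2 fold change of 1.19 (SE 0.33, adjusted p = 0.018). COL9A2 stood at 2.64, 2.42 and 3.37 CPM against 7.48, 5.25 and 3.51 CPM, with a log2 fold change of 0.94 (SE 0.29, adjusted p = 0.030). Both were higher in every depleted library, although for COL9A2 replicate 3 of both groups nearly met. The call for COL22A1 was lost without starved control replicate 1 or 2 or starved OGDH-depleted replicate 1 (adjusted p of 0.061 to 0.068), and that for COL9A2 without any of these or without starved OGDH-depleted replicate 2 (adjusted p of 0.064 to 0.12).

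COL6A3 stood at 199, 179 and 218 CPM in starved controls and at 259.8, 248 and 225 CPM in starved depleted cells, a separation that rests on a narrow gap (log2 fold change 0.30, SE 0.10, adjusted p = 0.0497). COL27A1, a fibrillar chain of cartilage, was the 1 chain called lower, at 143, 148 and 126 CPM against 111, 113 and 122 CPM (log2 fold change -0.27, SE 0.09, adjusted p = 0.039). Both calls were lost when any 1 of 9 libraries was left out, all but the 3 that stood apart, at adjusted p of 0.056 to 0.18 for COL6A3 and 0.052 to 0.14 for COL27A1. COL27A1 was also not called with the GC offset (-0.33, adjusted p = 0.27), and COL6A3 was not called with RLE factors or upper-quartile scaling. Over the whole list, calls numbered 3 without starved control replicate 1, starved control replicate 2 or starved OGDH-depleted replicate 1, 4 without starved OGDH-depleted replicate 2, and 15 without the 3 libraries, a fit that called 52.6% of all tested genes.

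**Figure D5:**
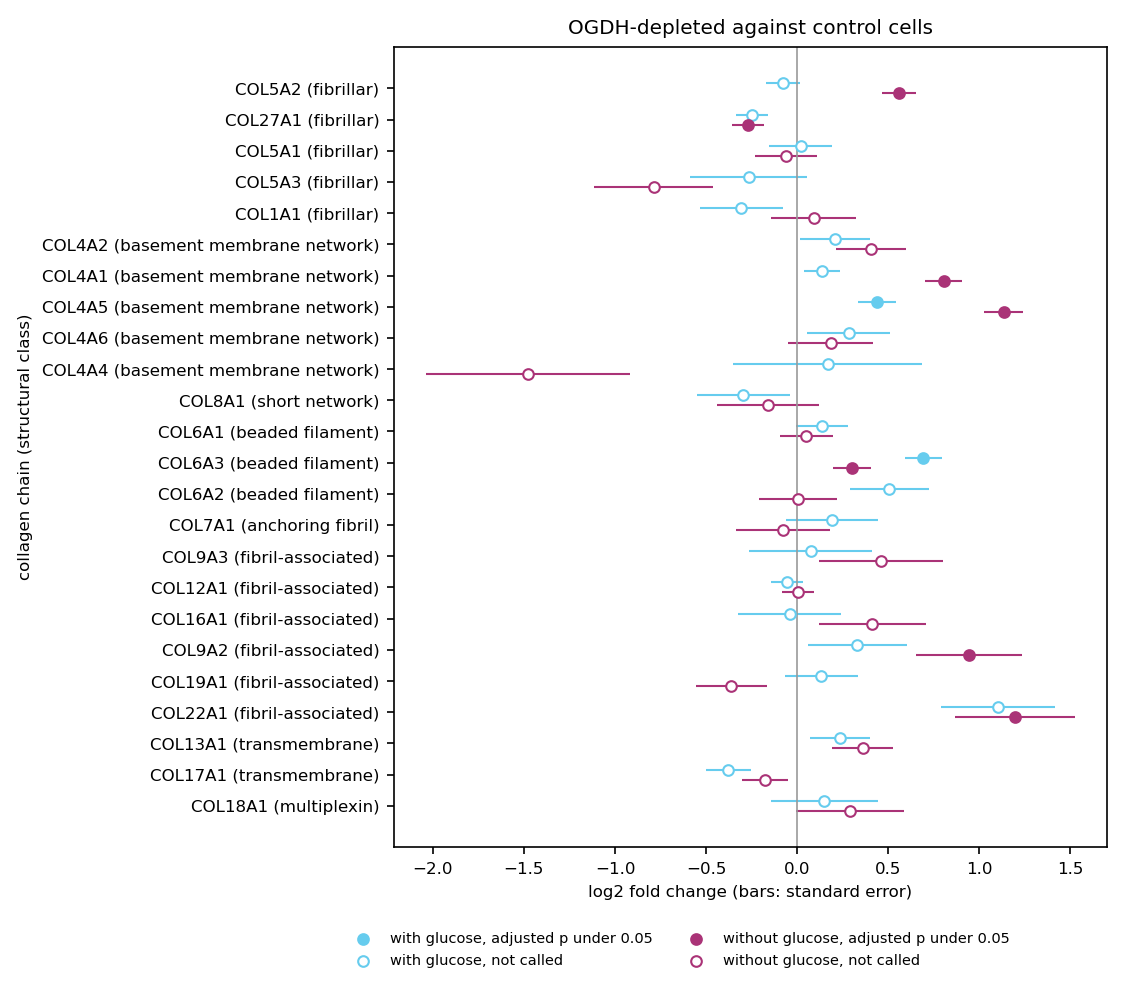
Log2 fold change with SE for OGDH-depleted against control cells, with and without glucose, for the 24 tested chains grouped by structural class. Filled points have an adjusted p under 0.05: COL6A3 and COL4A5 with glucose, and 7 chains without glucose.

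For 5 pairs of chains that share a helix the ratio within each library was compared. Per kb, COL4A2 stood at 1.94, 1.5 and 1.93 times COL4A1 in control cells, 2.09, 2.33 and 2.82 times in starved controls, 1.91, 1.92 and 1.87 times in OGDH-depleted cells and 2.01, 1.86 and 1.60 times in starved depleted cells. All 3 starved control libraries had a higher ratio than any other library. COL6A3 stood at 0.386, 0.432 and 0.364 times COL6A1 per kb in control cells, 0.474, 0.474 and 0.457 in starved controls, 0.576, 0.558 and 0.592 in OGDH-depleted cells and 0.527, 0.549 and 0.603 in starved depleted cells, so both depleted groups lay above both control groups. COL5A2 stood at 5.54, 6.70 and 5.30 times COL5A1 per kb in control cells, 4.89, 4.6 and 3.87 in starved controls, 5.72, 5.30 and 5.17 in depleted cells and 6.32, 6.56 and 7.53 in starved depleted cells. The starved controls were the lowest of the 4 groups for this pair. COL6A2 stood at 0.319 to 0.392 times COL6A1 per kb in control cells, below the 0.464 to 0.607 of the other 9 libraries. COL9A2 to COL9A3 overlapped between fed and starved control cells, at 0.046 to 0.053 and 0.034 to 0.048 per kb, and lay at 0.050 to 0.066 in the depleted libraries. In each of the first 3 pairs the libraries with the extreme values include those that stood apart in GC slope, and the partners differ in GC content, with 62.0% for COL4A2 and 55.4% for COL4A1, 53.2% for COL6A3 and 63.5% for COL6A1, and 47.9% for COL5A2 and 60.3% for COL5A1. The part of the GC slope in these ratios was not tested.

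Summed over the 44 chains, collagen stood at 1943 ± 263 CPM in control cells, 1504 ± 187 in starved controls, 2181 ± 21.5 in OGDH-depleted cells and 1853 ± 250.3 in starved depleted cells (SD, n = 3). The control and starved control libraries overlapped, at 1640.4 to 2118 and 1368 to 1717 CPM. COL4A2 and COL6A3, the most counted chains, held 40.3% of these counts and the 10 most counted chains 92.1%.

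Genes that modify and fold collagen chains moved in both directions, with 5 higher and 4 lower of 19 in starved control cells (median -0.03), against 17% and 17.5% of all tested genes. Without the 3 libraries that stood apart 7 were higher and 9 lower, in a fit that called 60.5% of all genes. PPIB, a prolyl isomerase of the endoplasmic reticulum, rose by 1.0 on the log2 scale (SE 0.10, adjusted p = 1.3e-05), FKBP14, another isomerase, by 1.21 (SE 0.15, adjusted p = 8.0e-05), P4HB, the beta subunit of prolyl 4-hydroxylase, by 1.20 (SE 0.15, adjusted p = 0.00012) and SERPINH1, the collagen chaperone HSP47, by 1.12 (SE 0.19, adjusted p = 0.00078). SERPINH1 averaged 71.9 ± 15.4 CPM in control cells, 156 ± 31.8 in starved controls, 65.4 ± 0.742 in OGDH-depleted cells and 70.5 ± 11.9 in starved depleted cells. So in starved control cells these 4 genes were higher while COL4A1, COL4A5 and COL5A2 were lower. P3H2 was also called higher (0.69). The 4 genes called lower, COLGALT1 (-0.92), P3H4 (-1.01), P3H3 (-1.58) and CREB3L1 (-1.17), had the same direction as these chains. In starved OGDH-depleted cells 0 of 19 was called by edgeR, against 7.18% of all tested genes. There 4 had a raw p under 0.05, against 4382 of all 18526 tested genes. DESeq2 called 2, the GC offset 4 (all higher) and the fit without the 3 libraries 6 (4 higher and 2 lower). The shares of all genes called in these fits are not given here, so these counts are no result about the list. In the interaction 5 of 19 genes were called, against 17.3% of all tested genes. It was negative for PPIB (-0.98), FKBP14 (-1.18), P4HB (-1.19) and SERPINH1 (-1.01, adjusted p = 0.021). It was positive for CREB3L1 (1.71), a transcription factor of collagen genes at 0.494 to 1.1 CPM on average over the groups. The hydroxylase subunits P4HA1 (0.40, adjusted p = 0.056) and P4HA2 (0.03, adjusted p = 0.92) and the lysyl hydroxylase PLOD2 (0.10, adjusted p = 0.61) were not called in starved control cells, nor in the other 4 contrasts.

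Of 9 tested genes for export and propeptide removal, 3 were higher and 3 lower in starved control cells (median -0.10), again against 17% and 17.5% of all tested genes. SEC24D, a coat protein of vesicles that carry procollagen, rose by 1.87 (SE 0.15) and MIA2, a receptor that loads large cargo, by 1.30 (SE 0.14), while ADAMTS3, a procollagen propeptidase, fell by 1.44 (SE 0.15). Of 6 crosslinking genes, 2 fell, against 17.5% of all tested genes, and the others were not called in the fit of 12 libraries. PXDN, the peroxidase that crosslinks type IV collagen, fell by 0.55 (SE 0.10, adjusted p = 0.0012), from 122 ± 8.93 to 83.5 ± 7.98 CPM, and was 127 ± 6.74 CPM in starved depleted cells. LOX (0.75, adjusted p = 0.081) and LOXL2 (0.20, adjusted p = 0.23), which crosslink fibrils, were not called in that fit. LOX was called higher with the GC offset (0.67, adjusted p = 0.022) and without the 3 libraries (1.24, adjusted p = 0.0015), LOXL2 with the GC offset alone of these (0.37, adjusted p = 0.0019), and LOXL4 was called lower without the 3 libraries (-0.27, adjusted p = 0.043). In the interaction PXDN was called at 0.47 (adjusted p = 0.039), in 9 of 21 alternatives as well.

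Of 14 tested genes of collagen breakdown and its inhibitors, 5 were higher and 3 lower in starved control cells (median 0.05), against 17% and 17.5% of all tested genes. MMP1, the interstitial collagenase, stood at 3.09 ± 0.638 CPM in control cells, 37.1 ± 5.85 in starved controls, 4.86 ± 0.531 in depleted cells and 7.49 ± 0.956 in starved depleted cells. It rose by 3.59 on the log2 scale in starved controls (SE 0.19, adjusted p = 1.2e-07), and the interaction was -2.96 (SE 0.25, adjusted p = 1.9e-05). MMP10 rose by 3.42 and MMP3 by 4.47 in starved controls, with interactions of -2.74 and -3.08. MMP14, a membrane collagenase, was at 0.06 (adjusted p = 0.82). The 3 lower genes were MMP16 (-0.69), MMP2, a gelatinase (-0.39), and MMP8, a collagenase (-1.13), with interactions of 1.08, 0.41 and 1.64. So MMP1, MMP3 and MMP10 had the opposite direction to COL4A1, COL4A5 and COL5A2 in both contrasts, and MMP2, MMP8 and MMP16 the same direction.

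Of 7 tested collagen receptors, 2 were higher and 1 lower, against 17% and 17.5% of all tested genes. With the GC offset 5 were called (2 higher and 3 lower), in a fit that called more genes over the whole table too, as given above. DDR2 rose by 1.07 (SE 0.15, adjusted p = 0.00026), DDR1 fell by 1.13 (SE 0.35, adjusted p = 0.026) and CD44 rose by 0.40 (adjusted p = 0.031) in starved controls, while ITGB1, the shared integrin subunit, was at 0.33 (adjusted p = 0.40). Of 22 matrix partners, 6 were higher and 5 lower (median -0.10), against 17% and 17.5% of all tested genes. Without the 3 libraries 7 were higher and 10 lower, again in a fit that called more genes over the whole table. The laminin chains LAMA1 (2.36), LAMA3 (2.34) and LAMB3 (3.04) and fibronectin, FN1 (0.96), rose, so basement membrane genes went in both directions within 5 h. SPARC, a collagen-binding protein of the matrix, was at -0.17 (adjusted p = 0.15). Of 15 genes of TGF-beta signalling, a main inducer of collagen genes, 8 were higher and 4 lower (median 0.34), against the same shares of all tested genes, with CCN2 at 2.32, CCN1 at 1.71 and SMAD3 at -1.03. In starved OGDH-depleted cells CCN1 (1.95) and CCN2 (1.47) also rose, while the collagen chains of those libraries showed the single call for COL7A1.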

How the data were processed

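RNA of 12 libraries was counted by the authors with featureCounts 2.0.1 on hg38, per the file headers, which show paired fragments over exons grouped by gene name, without strand and without fragments that map to several places. The submitters' processing notes also list Subread and hg38, and the aligner is not given in the sources used here. The deposited values are raw counts. Antisense and overlapping genes therefore cannot be separated where exons are shared.

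Counts were filtered with edgeR's filterByExpr (minimum count 10, minimum total 15), which kept 18526 genes, and scaled by TMM factors. Levels are CPM, or CPM per kb of the exon length in the table. One model with a mean for each of 4 groups gave 5 contrasts by the quasi-likelihood test (edgeR 4.0.16, R 4.3.3, 8 residual degrees of freedom), with p-values adjusted (Benjamini-Hochberg) in each contrast over every tested gene and called under 0.05. The model was tested on simulated data. Alternatives were RLE and upper-quartile scaling, DESeq2 1.42.0, no filter and a minimum count of 30, a replicate block, a GC offset (lowess, span 0.3, on the GC of the longest GENCODE v29 transcript, known for 24 of 24 tested chains and 96.2% of tested genes), each library left out, the 3 outlying libraries left out, and only the 2 groups compared.

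Every tested chain is named, and chains called in a contrast are given by library. Of other lists the called genes with the smallest p, up to 4 a list and contrast, and 11 fixed genes could be named. For chain folding and TGF-beta signalling further called genes are named, so that both directions are shown. The chains, lists, outlying libraries and alternatives were chosen with earlier results of these data known. Same-numbered libraries deviated together in some pairs of groups and in opposite ways in others, with correlations of -0.69 to 0.64. No library repeated another, since pairs of replicates had a chi-square of 3.73 to 152 per degree of freedom. The precision of a level is that of the 3 libraries, limited further by counting in called chains with low counts. Per library, COL22A1 was counted 14 to 75 times, COL9A2 45 to 193, COL4A5 85 to 297, COL19A1 102 to 202 and COL16A1 114 to 479. For these chains the spread of 3 libraries can understate the uncertainty of a level. Of the 44 chains, 32 had a RefSeq promoter entry.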

Additional observations from a re-analysis of the deposited data

Results flagged for a closer look

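The effect of starvation differed between control and OGDH-depleted cells for 3 collagen chains, by the interaction term of edgeR's quasi-likelihood test. The difference between the log2 fold changes was 0.64 for COL5A2 (adjusted p = 0.0066), 0.67 for COL4A1 (adjusted p = 0.0073) and 0.70 for COL4A5 (adjusted p = 0.0077). COL5A2 and COL4A1 had a log2 fold change of -0.63 and -0.94 in control cells and of 0.00 and -0.27 in OGDH-depleted cells, and COL4A5 of -0.52 and 0.18. The causes were not tested.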

How the results depend on the processing

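Of the 19 calls of a chain in a contrast, 10 held under every alternative, and no called chain changed sign. Calls in starved against fed control cells were 6, and 12 with the GC offset, 12 with the GC offset and replicate block, 15 without the 3 outlying libraries and 4 to 11 with 1 library left out. The counts of 15 and 11 include COL2A1, which failed the filter of the main fit. Calls in starved OGDH-depleted cells were 1, and 0 with RLE factors, 0 with the replicate block, 2 with the GC offset, 2 with the offset and block, 3 without the 3 libraries and 0 to 1 with 1 library left out. Calls for OGDH loss with glucose were 2, and 1 with upper-quartile scaling, 4 by DESeq2, 1 with no filter, 1 with the replicate block, 5 with the GC offset, 5 with offset and block, 6 without the 3 libraries, 1 with only the 2 groups and 1 with any 1 library left out. Calls for OGDH loss without glucose were 7, and 11 with offset and block, 15 without the 3 libraries, 4 with only the 2 groups and 3 to 9 with 1 library left out. Calls in the interaction were 3, and 9 with the GC offset, 9 with offset and block, 11 without the 3 libraries and 3 with any 1 library left out. The share of all tested genes called is given above for only some of these fits. A count that differs from the main fit is thus no result about the chains. Of all genes called in starved OGDH-depleted cells 33.7% were higher, and 44.5% with the GC offset. The cause of these differences was not tested.

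Of 18 correlations between same-numbered libraries of different groups 7 were over 0.1, and they ranged from -0.69 to 0.64. The outlying libraries enter these values through the group means, so they cannot settle whether the replicate numbers pair the samples. With the replicate block the calls were 6, 0, 1, 5 and 3 in the order above. COL5A1 in the interaction (0.33, adjusted p = 0.034, without the 3 libraries) and COL6A2 in starved OGDH-depleted cells (0.37, adjusted p = 0.0018, with the GC offset) were called only with a sign other than that reported. Depth limits COL4A4, at 2 to 12 counts per library, COL4A6, COL8A1 and COL5A3, for which no difference was called in the fit of 12 libraries.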
